A study of Mus musculus with 12 samples.

Results

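The genes described here are those that build cholesterol and long fatty acids in the cell, together with the SREBP system that controls them, in the mouse embryonic cortex at 3 stages. These were E12.5, E15.5 and then E18.5, where E marks the day of embryonic development. They were chosen by symbol: 32 genes were listed, from acetyl-CoA thiolase to the fatty acid desaturases, and every array probe annotated with one of these symbols was taken. Of these, 29 had a probe (49 probes in all), out of 19057 genes with a probe on the array. Acat2, Hmgcs1 and Fdft1 had no probe under these symbols in the annotation used here and were not analysed here. Mvk, which phosphorylates mevalonate, and Acaca, the acetyl-CoA carboxylase that commits carbon to fatty acids, were undetected on all 12 arrays and therefore had no measured level. The other 27 genes were tested, among 10662 tested genes, and 26 of them were detected on all 12 arrays. Fasn was the exception, with 3 of the 4 E12.5 arrays.

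Total RNA of the embryonic cortex was hybridized to Illumina bead arrays, on which the fluorescence of a probe follows the amount of its transcript. There were 4 arrays for each of the 3 stages. The labels give the stage and the tissue of each array, and name no strain, genotype, sex or treatment. The series describes RNA from 4 embryos at each time point, but no label says whether the arrays of a stage came from separate litters. The p-values therefore measure the spread between these samples. Changes are given for the first interval (E15.5 relative to E12.5), the second interval (E18.5 relative to E15.5) and the whole span (E18.5 relative to E12.5).

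Cholesterol is made from acetyl-CoA by way of mevalonate, the isoprenoids, squalene and lanosterol, and the enzymes after lanosterol trim and rearrange the ring system until cholesterol is reached. Fatty acid synthesis starts from the same acetyl-CoA, and elongases and desaturases then lengthen the chains and place double bonds. Transcription of both branches is driven by the SREBP factors, which leave the endoplasmic reticulum with the escort protein SCAP when sterols are low and are retained there by INSIG proteins when sterols are high. The fetal brain is walled off from circulating cholesterol as its vessels mature, so its cells rely largely on their own synthesis.

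Array medians lay between 86.1 and 99.3 intensity units, and 15227 to 17472 probes were detected per array. On the first principal component (79.0% of the variance), E12.5 replicate 4 lay at −53.4, whereas the other E12.5 arrays lay between −91.6 and −88.2 and the E15.5 arrays between −8.89 and 7.39. Cell type markers shifted strongly over the same stages. Beside the counts of markers below, 31.5% of all tested genes were higher and 34.4% lower over the whole span at an adjusted p under 0.01. These shares were 19.8% and 23.4% in the second interval. The summed intensity of 6 tested neuronal markers lay between 6748 and 13601 at E12.5, between 20882 and 23417 at E15.5 and between 44510 and 45934 at E18.5, and all 6 rose over the whole span. For 8 apical progenitor markers the sums were 10938 to 13208, then 7978 to 8581, then 2887 to 3316, and 7 of 8 fell over the whole span. Oligodendrocyte lineage markers (6 tested) summed to 381 to 406, 349 to 523 and 5115 to 5661 from the earliest stage on, and 5 of 6 rose in the second interval. Of 5 astrocyte markers, 4 rose and 1 fell in the second interval, with sums of 3579 to 4749, 5264 to 6192 and 3129 to 3642 from the earliest stage to the latest. Choroid plexus markers (5 tested) summed to 6657 to 18979, 326 to 11750 and 133 to 201, the highest E15.5 value being that of replicate 4. The 5 endothelial markers summed to 426 to 598, 1076 to 1134 and 1556 to 1764, the 6 microglial markers to 365 to 431, 504 to 581 and 507 to 573, and the 5 erythroid markers to 27638 to 31743, 21175 to 24728 and 15476 to 19315. Of the meningeal list, 1 of 6 genes was tested, at 236 to 295, 298 to 370 and 193 to 270. In bulk tissue, fewer cells of a type and less RNA per cell cannot be told apart, and the part of these shifts in the results that follow was not tested.

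The called members mostly rose in the second interval. In the first, the share of members that fell was near that of all tested genes, and only 1 member rose. Between E15.5 and E18.5, 11 of the 27 tested members rose and 1 fell at an adjusted p under 0.01, which is 40.7% and 3.70% of them, beside 19.8% of all tested genes higher and 23.4% lower. In the first interval, 1 member rose and 7 fell, which is 3.70% and 25.9%, beside 24.2% and 21.8% of all tested genes. Over the whole span, 11 members rose and 4 fell, which is 40.7% and 14.8%, beside 31.5% and 34.4% of all tested genes. The median log2 fold change of the members was −0.18 in the first interval, 0.39 in the second and 0.21 over the whole span, beside −0.0056, −0.059 and −0.069 for all tested genes. Most changes were small: with a minimum of 2-fold added, 0 members rose and 2 fell in the first interval (Idi1 and Scd1), beside 7.73% and 5.18% of all tested genes. In the second interval 2 rose (Hsd17b7 and Scd1) and 0 fell, beside 6.95% and 5.47%, and over the whole span 0 passed in either direction, beside 16.3% and 13.8%. Of the 35 calls in the 3 comparisons, 30 held when any 1 array was left out, and the other 5 are named with their genes. Median scaling in place of quantile normalization moved the whole-span median of all tested probes to 0.13 on the log2 scale, against −0.07 with quantile normalization. The medians of the members under it were −0.0411 in the first interval, 0.55 in the second and 0.33 over the whole span, and without background correction the second-interval median was 0.23. Under median scaling the first-interval calls of Msmo1 and Elovl5 and the whole-span calls of Lss, Srebf1 and Scd2 were lost, and 4 other calls were gained.

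At their brightest probes, the 27 tested genes fell into few patterns. The commonest, with 9 genes, was no called change before E15.5 and a higher level at E18.5 than at both earlier stages: Mvd, Fdps, Sqle, Cyp51, Nsdhl, Hsd17b7, Sc5d, Elovl6 and Fads2. Msmo1 and Scd1 fell and then rose. Lss and Scd2 were lower at both later stages than at E12.5, and Idi1, Dhcr7 and Elovl5 were called only for a fall in the first interval. Insig2 was higher at both later stages than at E12.5, Acly fell late, and Tm7sf2 and Srebf1 were called only over the whole span. The remaining 7 genes, Pmvk, Ebp, Srebf2, Scap, Insig1, Fasn and Fads1, were not called in any comparison at their brightest probe.

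**Figure D1:**
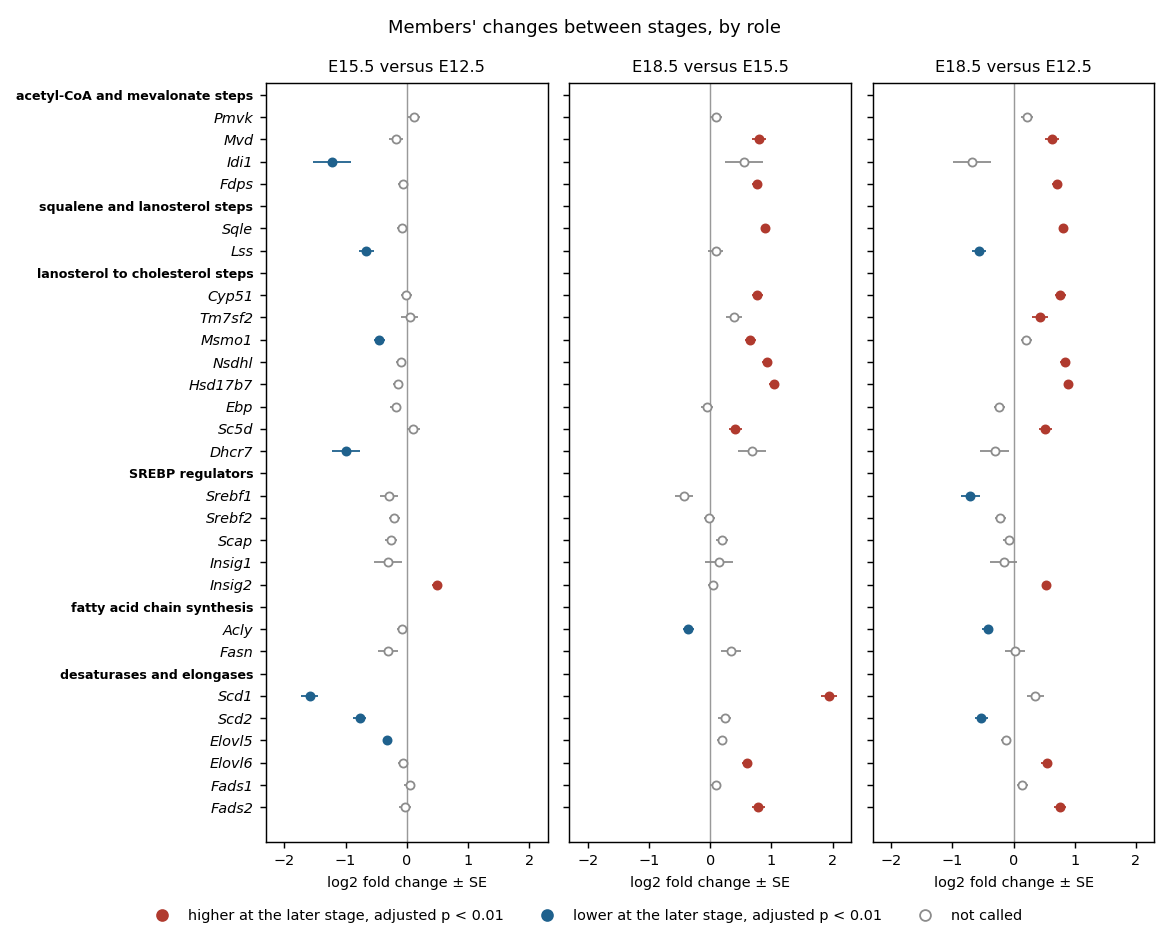
Log2 fold change ± SE (x axis) of the 27 tested members, grouped by role, in each of the 3 comparisons (n = 4 arrays per stage); filled red and blue points passed an adjusted p under 0.01, open points did not. The panel of E15.5 versus E12.5 holds 7 blue points and 1 red point, and that of E18.5 versus E15.5 holds 11 red and 1 blue. The panel of E18.5 versus E12.5 holds 11 red and 4 blue.

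In the mevalonate steps, 2 of 4 tested enzymes rose in the second interval, beside 19.8% of all tested genes. Mvd, which decarboxylates mevalonate pyrophosphate, averaged 9.29 ± 0.18 at E18.5 and 8.48 ± 0.10 at E15.5 in log2 intensity (SD, n = 4 each), a rise of 1.74-fold (log2 fold change 0.80, SE 0.12, adjusted p = 5.78e-05). Fdps, the farnesyl pyrophosphate synthase, was among the brighter signals and tight between arrays. It averaged 12.20 ± 0.10 at E12.5, 12.14 ± 0.05 at E15.5 and 12.91 ± 0.10 at E18.5, a 1.70-fold rise in the second interval (adjusted p = 3.80e-06). A dimmer second Fdps probe, ILMN_1232741, had a deeper dip. It was detected on all arrays at E12.5 and E18.5 but on none at E15.5, so that its first-interval fall was at least 2.38-fold (adjusted p = 9.26e-06) and its second-interval rise at least 1.87-fold (adjusted p = 8.20e-05). For such a bound, each array of the undetected stage was given its lowest detected signal, or the value of the probe itself where that is higher, and the other stage kept its mean. With both Fdps probes averaged, the first-interval fall was called (log2 fold change −0.71, adjusted p = 3.28e-05), as was the later rise, and the change over the whole span was not (0.18, adjusted p = 0.105). Pmvk, which adds the next phosphate to mevalonate, gave log2 fold changes of 0.12 in the first interval and 0.10 in the second, with 95% intervals of −0.09 to 0.34 and −0.11 to 0.32.

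Idi1, the isomerase that makes dimethylallyl pyrophosphate, varied widely between arrays of 1 stage, with an SD of 0.53, 0.51 and 0.53 from the earliest stage to the latest. Its log2 intensity was 7.80, 7.86, 8.81 and 8.67 at E12.5, 6.89, 7.77, 6.55 and 7.03 at E15.5, and 7.88, 7.82, 7.93 and 6.83 at E18.5. The E12.5 arrays all lay above the E15.5 arrays, by as little as the gap between 7.80 and 7.77, and the E18.5 arrays overlapped both. Its first-interval fall was 2.34-fold (log2 fold change −1.23, SE 0.31, adjusted p = 0.00427). That call was lost when any of E12.5 replicate 3, E12.5 replicate 4 or E15.5 replicates 1, 3 and 4 was left out, with adjusted p of 0.0113 to 0.0169 and log2 fold changes of −1.21 to −1.05. The later difference, 0.55 on the log2 scale, did not pass (adjusted p = 0.152). For Idi1, E12.5 replicates 3 and 4 and E15.5 replicate 2 read highest in their stages, and E18.5 replicate 4 read lowest. The brightest probes of Insig1 and of Fabp7, an apical progenitor marker, had these same extremes, and the cause was not tested.

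Of the squalene and lanosterol steps, the 2 tested enzymes went separate ways. Sqle, the squalene epoxidase and a rate-limiting enzyme of the pathway, read 11.67, 11.68, 11.81 and 11.73 at E12.5, 11.69, 11.64, 11.65 and 11.57 at E15.5, and 12.52, 12.57, 12.49 and 12.57 at E18.5. The earlier stages overlapped, and every E18.5 array lay above both. Its rise in the second interval was 1.86-fold (log2 fold change 0.90, SE 0.07, adjusted p = 2.42e-07). Its second tested probe, ILMN_2600348, rose 2.34-fold (adjusted p = 1.69e-07). Lss, the cyclase that closes squalene epoxide into lanosterol, averaged 9.42 ± 0.25 at E12.5, 8.76 ± 0.11 at E15.5 and 8.85 ± 0.12 at E18.5. It fell 1.58-fold in the first interval (adjusted p = 0.000396) and 1.48-fold over the whole span (adjusted p = 0.000757), and its log2 fold change in the second interval was 0.09 (95% interval −0.17 to 0.35). A dim second Lss probe, with 1 detected array each at the earliest and the latest stage, was not called, and with both probes averaged neither fall of Lss passed (adjusted p = 0.0305 and 0.0184).

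After lanosterol, 5 of 8 enzymes rose between E15.5 and E18.5 and none fell, beside 19.8% and 23.4% of all tested genes. Hsd17b7, the ketosteroid reductase that completes removal of the methyl groups at the fourth carbon, had the largest rise of the sterol enzymes at their brightest probes. It read 9.15, 9.12, 9.03 and 9.17 at E12.5, 8.97, 9.05, 8.99 and 8.89 at E15.5, and 10.02, 10.06, 9.93 and 10.03 at E18.5. The E18.5 arrays stood clear of the others, and the earlier stages overlapped. Its second-interval rise was 2.05-fold (log2 fold change 1.03, SE 0.07, adjusted p = 8.71e-08). Nsdhl, a dehydrogenase of the same demethylation, read 9.40, 9.33, 9.41 and 9.28 at E18.5, against 8.29, 8.49, 8.53 and 8.41 at E15.5, a rise of 1.90-fold (adjusted p = 7.70e-07). Msmo1, the oxidase that opens this demethylation, fell and then rose. It averaged 11.15 ± 0.17 at E12.5, 10.70 ± 0.11 at E15.5 and 11.36 ± 0.02 at E18.5, with log2 fold changes of −0.45 in the first interval (adjusted p = 0.00121) and 0.66 in the second (adjusted p = 5.90e-05).

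Cyp51, the lanosterol demethylase, averaged 10.34 ± 0.10 at E18.5, against 9.57 ± 0.03 at E15.5, a rise of 1.71-fold (adjusted p = 1.22e-05). Sc5d, the desaturase that makes 7-dehydrocholesterol, rose 1.33-fold over that interval (adjusted p = 0.00522). The Sc5d call in the second interval was lost without any of E15.5 replicates 1, 2 and 4 or E18.5 replicates 1 to 3 (adjusted p 0.0101 to 0.0184), while its rise over the whole span, 0.52 on the log2 scale, had an adjusted p of 0.000603. Tm7sf2, a sterol reductase of the fourteenth carbon, was called over the whole span alone (log2 fold change 0.43, adjusted p = 0.00937), and leaving out any of 9 arrays moved it past the threshold (adjusted p 0.0104 to 0.0316). Those were every array but E12.5 replicate 4 and E15.5 replicates 1 and 4. Without E12.5 replicate 4 its second-interval change of 0.39 passed (adjusted p = 0.00629). Ebp, the isomerase that shifts the ring double bond, was not called, at −0.18 in the first interval and −0.05 in the second (95% interval −0.25 to 0.15).

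Dhcr7, which converts 7-dehydrocholesterol to cholesterol, fell in the first interval. It read 8.18, 8.42, 9.22 and 7.97 at E12.5, 6.92, 7.55, 7.84 and 7.496 at E15.5, and 8.15, 8.11, 8.18 and 8.11 at E18.5. The E15.5 arrays lay below all others. The SD was 0.55 at E12.5, where replicate 3 was highest, and 0.03 at E18.5. It fell 1.99-fold in the first interval (log2 fold change −0.996, SE 0.23, adjusted p = 0.00254). The later difference, 0.68 on the log2 scale, missed the threshold (adjusted p = 0.0241), and passed it without E12.5 replicate 3 (adjusted p = 0.00345).

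**Figure D2:**
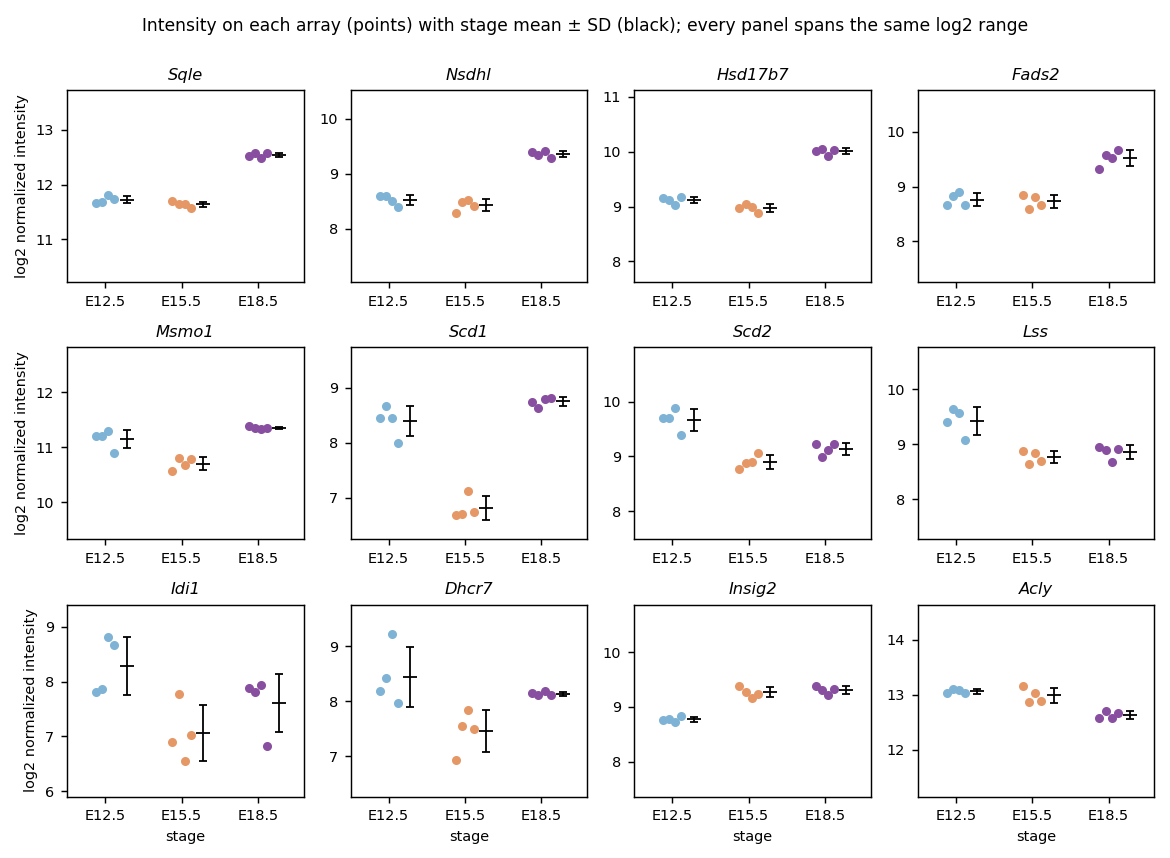
Log2 normalized intensity (y axis, the same span in every panel) of 12 members on each array (points) at the 3 stages (x axis), with the stage mean ± SD in black (n = 4). Sqle, Nsdhl, Hsd17b7 and Fads2 are level until E15.5 and higher at E18.5, Scd1 dips at E15.5 (6.81 ± 0.21), and Idi1 and Dhcr7 scatter widely at E12.5.

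The promoters of 5 sterol enzymes that rose between E15.5 and E18.5 are shown. The sequences are from RefSeq (GRCm38.p6), each 250 bases before to 50 bases after the start site, written 5′ to 3′ on the strand of the gene. Capitals mark 4 motifs searched on both strands: CCAAT (bound by NF-Y), GGGCGG (Sp1), CACGTG (the E-box) and TCACNCCAC (a sterol regulatory element, the site of SREBP). On the opposite strand they read as ATTGG and CCGCCC, and CACGTG is its own complement. No motif of this list shares all its letters with another.
Mvd, chr8:122443373-122443672, minus strand: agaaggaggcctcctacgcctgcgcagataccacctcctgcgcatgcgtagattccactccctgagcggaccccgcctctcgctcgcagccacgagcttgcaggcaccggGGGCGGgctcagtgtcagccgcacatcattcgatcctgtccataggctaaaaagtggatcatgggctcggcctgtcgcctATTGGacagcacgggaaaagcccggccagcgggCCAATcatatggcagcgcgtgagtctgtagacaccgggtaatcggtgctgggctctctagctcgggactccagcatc
Cyp51, chr5:4104648-4104947, minus strand: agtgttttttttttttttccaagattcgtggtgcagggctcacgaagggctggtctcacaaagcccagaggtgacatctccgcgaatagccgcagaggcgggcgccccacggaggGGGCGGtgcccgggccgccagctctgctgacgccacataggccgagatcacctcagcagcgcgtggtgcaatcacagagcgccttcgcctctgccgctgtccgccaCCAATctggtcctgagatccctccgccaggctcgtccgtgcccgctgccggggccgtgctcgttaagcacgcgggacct
Msmo1, chr8:64733529-64733828, minus strand: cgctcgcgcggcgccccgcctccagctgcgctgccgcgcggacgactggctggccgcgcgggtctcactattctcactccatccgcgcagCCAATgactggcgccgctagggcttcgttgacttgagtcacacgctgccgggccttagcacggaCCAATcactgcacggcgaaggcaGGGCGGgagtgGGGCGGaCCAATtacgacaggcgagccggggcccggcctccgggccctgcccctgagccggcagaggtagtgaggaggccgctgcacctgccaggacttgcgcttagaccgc
Nsdhl, chrX:72918271-72918570, plus strand: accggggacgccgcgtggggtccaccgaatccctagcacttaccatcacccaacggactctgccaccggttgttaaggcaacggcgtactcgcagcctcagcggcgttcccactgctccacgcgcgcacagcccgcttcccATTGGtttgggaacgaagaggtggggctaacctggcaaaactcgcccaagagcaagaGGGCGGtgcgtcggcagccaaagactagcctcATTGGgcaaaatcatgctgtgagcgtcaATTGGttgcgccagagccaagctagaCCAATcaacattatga
Hsd17b7, chr1:169969156-169969455, minus strand: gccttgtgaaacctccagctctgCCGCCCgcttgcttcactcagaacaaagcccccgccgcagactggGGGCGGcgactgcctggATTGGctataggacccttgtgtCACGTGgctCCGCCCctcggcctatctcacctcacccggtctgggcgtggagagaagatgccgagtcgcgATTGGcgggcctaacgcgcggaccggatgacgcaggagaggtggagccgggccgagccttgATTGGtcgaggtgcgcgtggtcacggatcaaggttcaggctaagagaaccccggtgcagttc
Each of these 5 promoters held at least 1 CCAAT and at least 1 GGGCGG on one strand or the other, and the Hsd17b7 promoter also held a CACGTG. The promoters of Sc5d, Fads2 and Elovl6, which also rose, are not shown, and those of Fads2 and Elovl6 held no CCAAT.

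Promoters were matched for 26 of the 32 listed genes (34 start sites), and Fdps, Fdft1, Sqle, Scd1, Scd2 and Fads1 were not matched. CCAAT occurred in 21 of the 26 genes (80.8%), beside 43.7% of the 8629 tested genes with a promoter and 37.4% of all 32851 promoters of this length. GGGCGG occurred in 21 of 26 genes (80.8%), beside 70.1% of tested genes and 35.7% of all promoters. CACGTG occurred in 6 of 26, beside 11.6% of tested genes and 7.15% of all promoters. TCACNCCAC occurred in 1 of 26, that of Hmgcs1 at 137 bases before the start, beside 1.4% of tested genes and 1.24% of all promoters. Only these letters were searched for a sterol regulatory element, so a site with other letters would not be counted. Among the 8 matched genes that rose in the second interval, 6 held CCAAT, 7 held GGGCGG and 2 held CACGTG, and Elovl6 held none of the 4. A gene with several start sites had more sequence searched, and a match describes the letters alone.

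**Figure D3:**
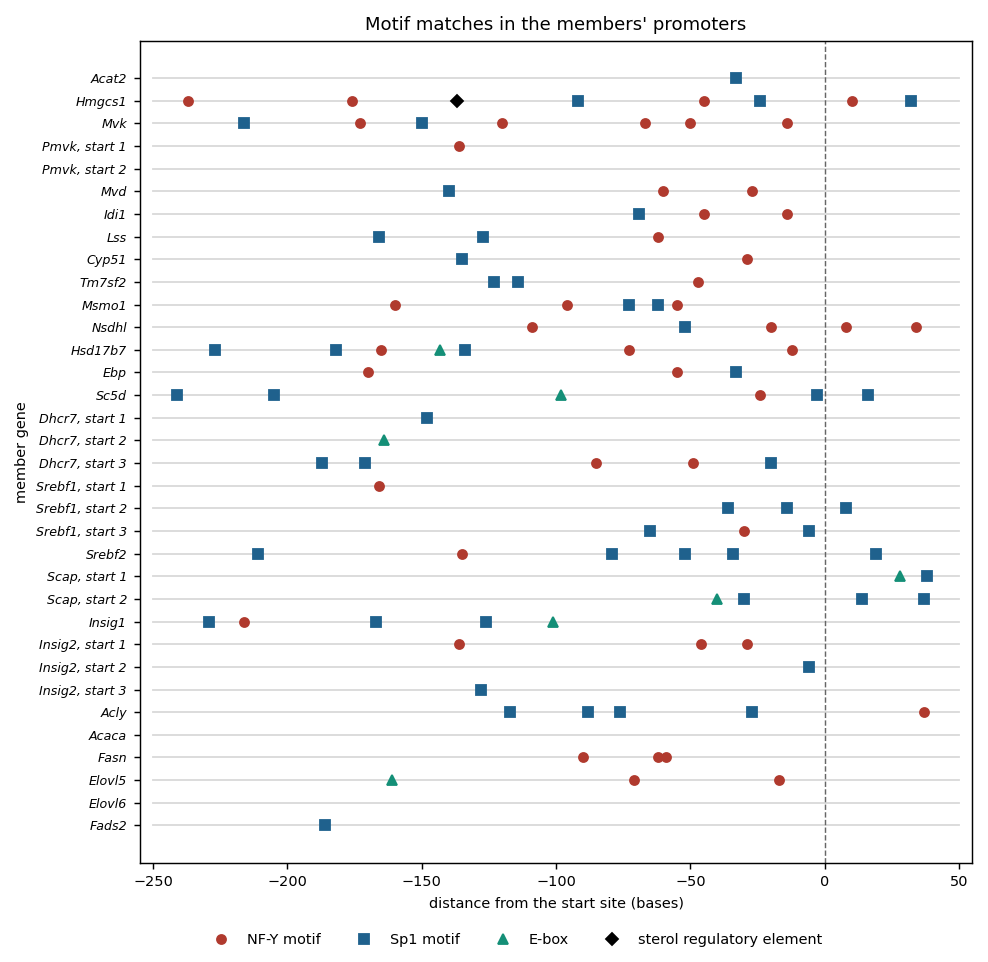
Positions of the motif matches (symbols by motif, either strand) along the 34 member promoters (rows), by distance in bases from the start site (x axis, dashed line at the start). Of the 45 CCAAT matches, 28 start within 100 bases before the start site, and the 1 match to TCACNCCAC (sterol regulatory element) lies in the Hmgcs1 promoter.

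The SREBP regulators showed no late rise at their brightest probes: of 5 genes, none was called in the second interval. Of all tested genes, 19.8% were called higher and 23.4% lower there. Insig2, an endoplasmic reticulum protein that retains SCAP, was the single member that rose in the first interval. It averaged 8.77 ± 0.05 at E12.5, 9.27 ± 0.09 at E15.5 and 9.31 ± 0.07 at E18.5, a 1.41-fold rise in the first interval (adjusted p = 0.000112) and a log2 change of 0.04 in the second (95% interval −0.13 to 0.20). Its second tested probe gave 1.52-fold and 0.04. Srebf1, which encodes the SREBP forms that favour fatty acid genes, was dim and averaged 5.87 ± 0.15 at E18.5, against 6.58 ± 0.24 at E12.5, a fall of 1.63-fold (adjusted p = 0.000676). Srebf2, which encodes the form that favours sterol genes, gave log2 fold changes of −0.20 and −0.01 in the 2 intervals at its brightest probe, neither called. At its second probe, ILMN_1234082, it fell 1.32-fold in the first interval (adjusted p = 0.00799), and the average of both probes was also called there (log2 fold change −0.30, adjusted p = 0.00671). Scap, the escort of both, gave −0.26 and 0.19 (adjusted p = 0.0402 and 0.128).

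Insig1, the sterol-responsive partner of Insig2, gave different answers by probe. At its brightest probe, ILMN_2895388, the log2 intensity was 8.55, 8.49, 9.22 and 8.83 at E12.5, 8.21, 9.04, 8.42 and 8.18 at E15.5, and 8.57, 8.82, 8.95 and 8.08 at E18.5, so all 3 stages overlapped and no comparison was called. The other tested probes both rose late. ILMN_1245272 rose 1.47-fold and ILMN_2606693 1.72-fold in the second interval (adjusted p = 0.000962 and 3.17e-05), and neither had an overlap between those stages. With the 3 probes averaged, Insig1 rose by 0.47 on the log2 scale over the whole span (adjusted p = 0.000307), whereas the brightest probe alone gave −0.16 (adjusted p = 0.526).

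Of the 2 tested genes that feed and build the fatty acid chain, neither was called higher in any comparison. Among all tested genes, 24.2%, 19.8% and 31.5% were called higher in the first interval, the second and the whole span. Acly, the ATP citrate lyase that supplies cytosolic acetyl-CoA to both branches, fell in the second interval to 12.58, 12.71, 12.57 and 12.67 at E18.5, against 13.17, 12.87, 13.03 and 12.88 at E15.5, with no overlap. The fall was 1.28-fold (adjusted p = 0.00279). The call was lost without E15.5 replicate 1 or E18.5 replicate 3 (adjusted p 0.0101 and 0.0112), while the fall against E12.5, −0.43 on the log2 scale, had an adjusted p of 0.000419. Fasn, the fatty acid synthase, was dim and gave −0.31 in the first interval (adjusted p = 0.122) and 0.34 in the second (adjusted p = 0.0958). Without E12.5 replicate 2, the array on which it was lowest at that stage, the first-interval value was −0.48 (adjusted p = 0.00847).

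The largest changes of all members in both intervals were those of Scd1. This stearoyl-CoA desaturase, which makes oleate and palmitoleate, read 8.46, 8.66, 8.46 and 8.003 at E12.5, 6.67, 6.70, 7.13 and 6.74 at E15.5, and 8.75, 8.64, 8.80 and 8.82 at E18.5. The E15.5 arrays lay below all others, and the E18.5 and E12.5 arrays overlapped, with 8.64 as the lowest at E18.5 and 8.66 as the highest at E12.5. It fell 2.999-fold in the first interval (log2 fold change −1.58, SE 0.14, adjusted p = 2.07e-06) and rose 3.84-fold in the second (log2 fold change 1.94, SE 0.14, adjusted p = 8.23e-08). Its close relative Scd2 shared the fall but not a called recovery. It averaged 9.67 ± 0.20 at E12.5, 8.90 ± 0.12 at E15.5 and 9.14 ± 0.11 at E18.5, with log2 fold changes of −0.77 in the first interval (adjusted p = 5.19e-05) and 0.24 in the second (adjusted p = 0.0792). Scd1 and Scd2 are near copies in sequence, and how far their probes share targets was not tested.

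Of the enzymes of polyunsaturated chains, Fads2, the desaturase that introduces the first new double bond, averaged 9.52 ± 0.15 at E18.5, against 8.73 ± 0.12 at E15.5, a rise of 1.73-fold (adjusted p = 1.91e-05). A second Fads2 probe, ILMN_2519802, gave a log2 fold change of 0.21 (adjusted p = 0.152). Fads1, which acts after it, gave 0.05 and 0.09 in the 2 intervals, with 95% intervals of −0.14 to 0.24 and −0.10 to 0.28. Its dim second probe, undetected at E15.5 and detected on 2 of 4 arrays at E12.5, was called lower at E15.5 (adjusted p = 0.00516). Elovl6, which lengthens palmitate to stearate, rose 1.51-fold in the second interval (adjusted p = 4.90e-05), and its dim second probe, detected on 7 of 12 arrays, was not called. With both Elovl6 probes averaged, neither that rise (adjusted p = 0.0118) nor the whole-span change (adjusted p = 0.140) passed. Elovl5, an elongase of polyunsaturated chains, fell 1.24-fold in the first interval (adjusted p = 0.00406), a call lost without E12.5 replicates 1 or 2 or E15.5 replicates 1 or 2 (adjusted p 0.0128 to 0.0151).

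Whether a gene changed by different amounts in the 2 intervals was tested in the same fit. At the brightest probes, the difference was called for 12 of 27 members, all with the more positive change in the later interval. Of all tested genes, 18.2% were called and 8.01% were called in that direction. The difference was largest for Scd1 (3.53 on the log2 scale, adjusted p = 9.28e-07). Dhcr7 (1.68), Hsd17b7 (1.18), Msmo1 (1.10), Nsdhl (1.02), Scd2 (1.01), Sqle (0.98), Mvd (0.98), Fdps (0.83), Fads2 (0.82), Cyp51 (0.78) and Elovl6 (0.66) were the others. Further probes did not always match. The second Insig2 probe, ILMN_1216822, was called in the opposite direction (−0.56, adjusted p = 0.00857). ILMN_2606693 of Insig1 was also called (0.72, adjusted p = 0.00949). ILMN_2958207 of Nsdhl and the second probes of Fads2 and Elovl6 were not called (adjusted p = 0.0782, 0.295 and 0.199). The Dhcr7 call (adjusted p = 0.00692) was lost without E12.5 replicate 2, without E15.5 replicate 1, 2 or 4, and without any single E18.5 array. Both intervals use the E15.5 arrays, so a high or low E15.5 value moves them in opposite directions. Without E15.5 replicate 4, the array with the highest choroid plexus sum of its stage, 7 members were called: Mvd, Cyp51, Dhcr7, Elovl6 and Fads2 were lost. The count was 9 without E15.5 replicate 2, and 12 without both E12.5 replicate 4 and E15.5 replicate 4 (Elovl6 lost and Lss gained).

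**Figure D4:**
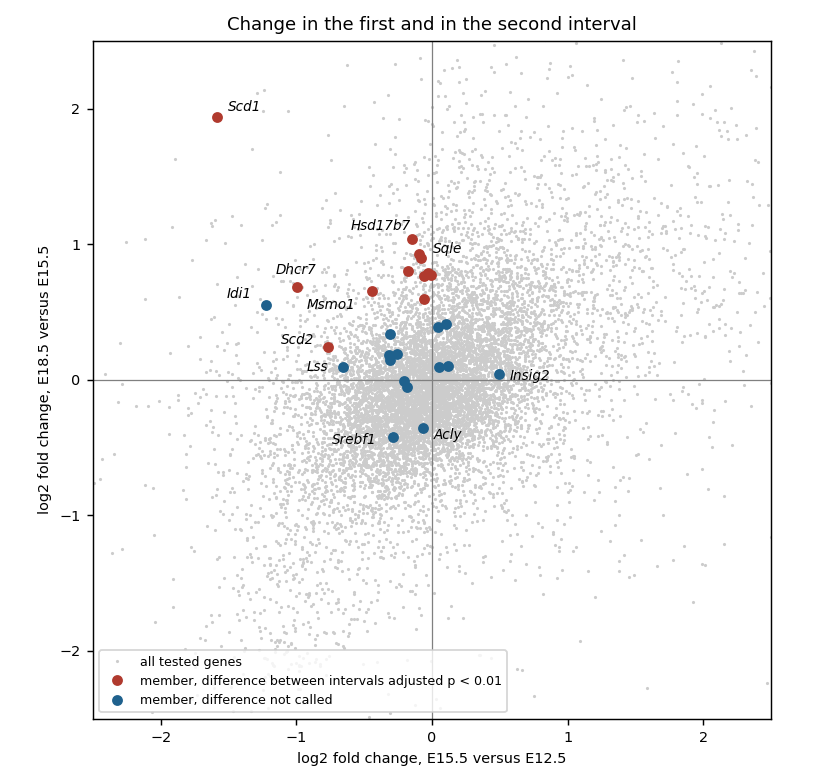
Log2 fold change at E15.5 versus E12.5 (x axis) and at E18.5 versus E15.5 (y axis) of the members (large points, red where the difference between intervals had an adjusted p under 0.01) over the 10662 tested genes (grey; some lie beyond the axes). Scd1 lies farthest to the upper left, at −1.58 and 1.94, and Hsd17b7 lies near the vertical zero line at −0.14 and 1.03; the axes share the E15.5 arrays.

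Of the 27 genes, 10 had more than 1 tested probe. Nsdhl had 4, of which ILMN_2725402, ILMN_2594525 and ILMN_2594521 rose 1.90-fold, 1.92-fold and 1.84-fold between E15.5 and E18.5, whereas ILMN_2958207 gave 1.19-fold (adjusted p = 0.1001). Both probes of Sqle and of Insig2 gave the same calls in the 3 comparisons. Probes of Fdps, Insig1, Fads2, Srebf2, Elovl6, Lss and Fads1 differed in at least 1 call, most of them given with each gene. Over the whole span, the second probes of Fdps (−0.35, adjusted p = 0.0509) and Fads2 (0.12, adjusted p = 0.372) were not called. ILMN_1245272 and ILMN_2606693 of Insig1 were each called higher over that span (log2 fold changes 0.73 and 0.85). No gene had probes called in opposite directions within 1 comparison.

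**Figure D5:**
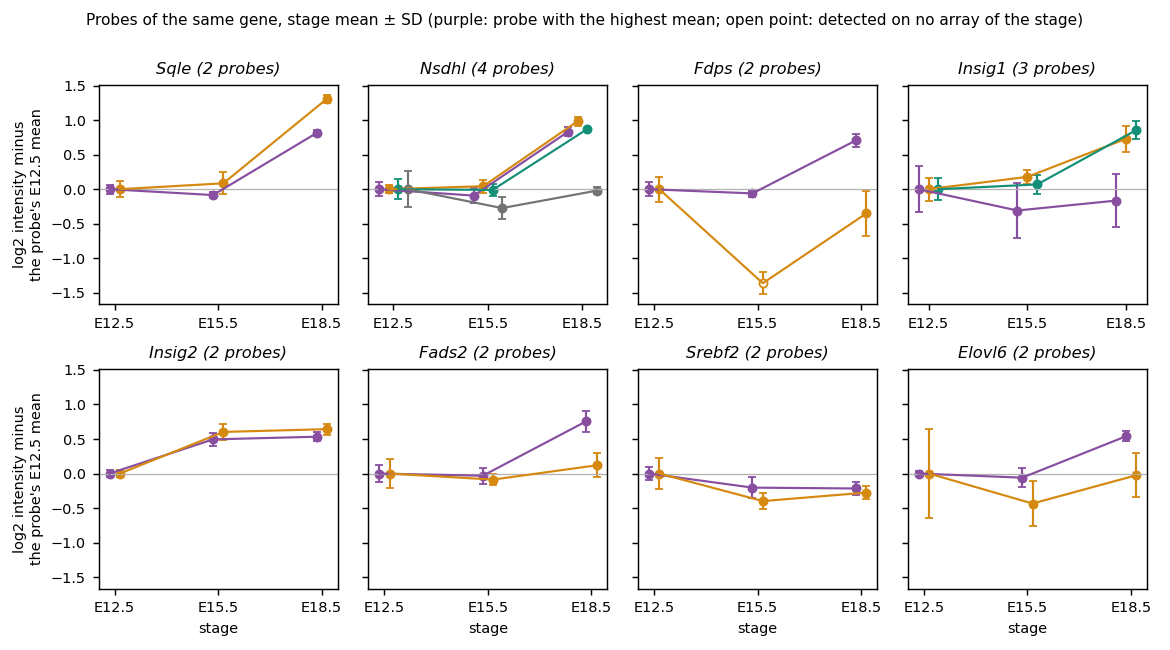
Stage mean ± SD (n = 4) of log2 intensity relative to the E12.5 mean of the same probe (y axis) at the 3 stages (x axis), for 8 genes with several tested probes; purple is the brightest probe and open points were detected on no array of the stage. The lines of Sqle, Insig2 and 3 of the 4 Nsdhl probes run together, while those of Fdps, Insig1 and Fads2 separate.

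Neighbouring parts of lipid metabolism were counted in full from lists. Beside the counts below, 24.2% of all tested genes were called higher and 21.8% lower in the first interval. These shares were 19.8% and 23.4% in the second interval, and 31.5% and 34.4% over the whole span. Of 5 further sterol and isoprenoid enzymes, 3 had a probe and 2 were tested. Lbr, a sterol reductase that is also the lamin B receptor of the nuclear envelope, fell in both intervals, by 4.60-fold over the whole span (adjusted p = 7.25e-10), and Dhdds, of the dolichol branch, was not called (−0.24 over the whole span). Lbr and Tm7sf2 catalyse the same reduction, and over the whole span their log2 fold changes were −2.20 and 0.43.

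Of 17 genes of sterol uptake, transport and turnover, 10 were tested. Over the whole span 5 were higher and 2 lower, beside 31.5% and 34.4% of all tested genes. Vldlr, a receptor for apolipoprotein E and reelin, rose by 1.99 on the log2 scale (adjusted p = 1.79e-09), Apoe, the main lipid carrier made in brain, by 1.60, and Abcg4, a sterol exporter, by 1.27. Lrp8, the other brain reelin receptor of this family, was higher by 0.72. In the second interval the list had 4 genes higher and 1 lower, and in the first 3 higher and 1 lower. Stard4, a cytosolic sterol carrier, named after its values were seen, fell and then rose, by −0.91 in the first interval and 0.51 in the second (adjusted p = 3.51e-05 and 0.00309).

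Of 10 genes of SREBP processing and promoter cofactors, 9 were tested. Over the whole span 3 were higher and 3 lower, beside 31.5% and 34.4% of all tested genes. Each interval had 1 higher and 1 lower. Prkaa2, a catalytic subunit of AMP-activated kinase, rose by 1.998 over the whole span on the log2 scale, and Sp1 fell by 1.68. Mbtps2, a protease that releases SREBP, was higher by 0.63 and Nfya, the DNA-contacting NF-Y subunit, by 0.61.

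Of 17 other fatty acid synthesis genes, 16 were tested, with 7 higher and none lower in the second interval, 3 higher and 2 lower in the first, and 7 higher and 1 lower over the whole span. Fads3, a relative of the desaturases above, was undetected at E12.5 and rose at least 3.53-fold over the whole span. Me1, the malic enzyme that supplies NADPH, rose by 1.60 on the log2 scale, Aacs, which activates acetoacetate, by 1.10, and Tecr, the last reductase of the elongation cycle, by 0.89. Over the second interval alone, Me1 was higher by 1.19, Tecr by 0.78 and Aacs by 0.74.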

How the data were processed

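Per the labels, cortical total RNA was labelled with biotin and hybridized to bead arrays, 4 per stage. The authors deposited a bead intensity for each of 45281 probes as a linear value, with no normalization across arrays. A detection p-value for every such intensity was deposited beside it. The authors also deposited processed log2 values, which equal the quantile-normalized log2 intensities with no background correction (to within 5e-09). Among tools, lumi is named by the submitters' processing notes, and its version is not given in the sources used here. Every value column was matched to an array by its name, and 0 columns were left unmapped.

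All fits used limma 3.58.1 (R 4.3.3). Background was removed with a normexp fit whose noise was taken from the detection p-values (offset 16), and the log2 values were then quantile normalized. A probe was tested if any array detected it at p under 0.01, which kept 19652 (43.4%). A single model held the 3 stage means, with moderated variances. Each comparison, and the difference between intervals, was adjusted by Benjamini-Hochberg over all tested probes. All adjusted p come from limma, and a call is an adjusted p under 0.01. The 4 arrays per stage limit the precision. The scripts were tested on simulated data.

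Gene symbols are those of the array annotation, where 34885 probes carry 1 symbol, 18 several and 10378 none. A gene stands for its tested probe with the highest mean, and no level was compared between probes. Members called at 2-fold or more are given on every array, as are Sqle, Dhcr7 and Insig1. Nsdhl and Acly are given on the arrays of E15.5 and E18.5. The others are given by means, fold changes or intervals, and further tested probes where they disagree. Of each related list, up to 4 called genes with the largest change from E12.5 to E18.5 are named, and all further sterol enzymes. The members, lists and motifs were chosen with earlier results of these data known. Marker lists covered apical progenitors, neurons, astrocytes, the oligodendrocyte lineage, choroid plexus, meninges, endothelial cells, microglia and erythroid cells. Their summed intensities are sums of linear normalized values over tested genes. Some listed genes had no probe in the annotation used here and were not analysed here. Alternatives covered the background, normalization, detection filter, threshold, adjustment, variance model, array weights, arrays in the fit, the methods' t-test, averaged probes, each array omitted in turn, and a block for the replicate number.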

Additional observations from a re-analysis of the deposited data

Results flagged for a closer look

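An array is given here where its gap to the nearest of the other 3 arrays of its stage was a larger part of the range of the 4 than the 95% limit of Dixon's test allows. Of 120 probe and stage groups, 7 passed that limit, where chance alone gives about 6. At the brightest probes, Scd1 was 7.13 on E15.5 replicate 3, with the other arrays of the stage at 6.67 to 6.74. Idi1 was 6.83 on E18.5 replicate 4, with the others at 7.82 to 7.93, and this low array lies inside the E15.5 range. Pmvk was 8.35 on E15.5 replicate 2 (others 8.14 to 8.17), and Fads1 was 12.92 on E15.5 replicate 3 (others 12.66 to 12.70). At second probes, Insig2 was 8.68 on E15.5 replicate 2 (others 8.90), Fdps was 5.43 on E15.5 replicate 2 (others 5.72 to 5.77, all undetected), and Fads1 was 5.73 on E18.5 replicate 1 (others 5.40 to 5.42).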

How the results depend on the processing

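A member value counted as reversed only where its sign changed and it was called in the report or under the alternative. Settings that alter only the threshold, the adjustment or the variance model keep every fold change, so no value could reverse under them. Under 30 other settings, 12 of which left out 1 array, 1 of 2430 member values reversed. With probes averaged, Insig1 rose by 0.47 on the log2 scale over the whole span (adjusted p = 0.000307). That setting also lost 5 calls (Fdps and Elovl6 over the whole span, Elovl6 in the second interval, Lss in the first interval and over the whole span) and gained 3 (Fdps and Srebf2 in the first interval, Insig1 in the second). At 2-fold or more, the members higher and lower were 0 and 2 in the first interval, 2 and 0 in the second, and 0 and 0 over the whole span. The count of members lower in the second interval, 1 in the report, was 0 under cyclic loess, 2 with array weights, 2 by the methods' t-test at an unadjusted p under 0.05, 2 at an adjusted p under 0.05, and 0 to 1 with each array left out. The count lower over the whole span was 1 under median scaling. Differences between intervals were called for 7 to 14 members with each array left out.

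The members' median log2 fold change moved by more than its spread between arrays (SD 0.049) in these settings. At E15.5 versus E12.5 it was −0.0411 under median scaling. At E18.5 versus E15.5 it was 0.23 without background correction and with the authors' values, 0.28 with an offset of 50, 0.55 under median scaling and 0.45 under cyclic loess. It was also 0.32 without E15.5 replicate 1 and 0.33 without E18.5 replicate 1. At E18.5 versus E12.5 it was 0.33 under median scaling, 0.31 under cyclic loess and 0.14 with no detection filter. It was also 0.16 without E12.5 replicate 4, and 0.16 without both E12.5 replicate 4 and E15.5 replicate 4. The cause of these moves was not tested. With each array left out in turn, the full range was 0.32 to 0.43 at E18.5 versus E15.5 and 0.16 to 0.26 at E18.5 versus E12.5. Median scaling made 62.5%, 61.6% and 61.1% of called probes higher in the 3 comparisons (first interval, second, whole span), against 50%, 48.3% and 47.4% in the report's setting.

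With the replicate number as a block, 5 members fell in the first interval in place of 7, Idi1 and Elovl5 being lost, and no other call of a member changed. Deviations of same-numbered arrays correlated at −0.33 to 0.27, and 3 of 12 arrays correlated best with their own number. These values cannot decide whether same-numbered arrays shared more than a number, such as a litter. Array signal limits the dim genes: Fasn, Srebf1 and the second probes of Lss, Elovl6 and Fads1 lay near the lowest detected signal, which was 5.45 to 5.90 per array in log2 units.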

Other observations

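Genes of fatty acid oxidation, the opposite process, were counted from a list of 12, of which 10 were tested. In the second interval, 2 rose and 5 fell. Over the whole span 2 were higher and 4 lower, and in the first interval 2 were higher and 1 lower. Among all tested genes, 19.8% were higher and 23.4% lower in the second interval. The shares were 31.5% and 34.4% over the whole span, and 24.2% and 21.8% in the first interval. Cpt2, which hands fatty acids over inside the mitochondrion, fell over the whole span by 1.58 in log2 units (SE 0.10, adjusted p = 7.29e-09), and Hadhb, a subunit of the trifunctional protein, fell by 0.90 (SE 0.12, adjusted p = 1.79e-05). Cpt1c, a brain form of carnitine palmitoyltransferase, was higher by 0.76, and Ppargc1a, a coactivator of mitochondrial genes, by 0.58. The summed intensity of the 10 genes lay between 4404 and 4636 at E12.5, between 4203 and 4565 at E15.5 and between 2908 and 3199 at E18.5.

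On each array, the median deviation of the 27 members from their own 12-array means lay between −0.07 and 0.04 at E12.5, between −0.27 and −0.18 at E15.5 and between 0.15 and 0.26 at E18.5 in log2 units. E12.5 replicate 4, which lay apart on the first principal component, was at −0.0069, within the range of its stage.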
